A study of Homo sapiens with 9 samples.

Results

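The keratins of basal, injured and simple epithelia were followed in 3 HaCaT lines: NLS-actin cells, WT-actin cells and the parental line, with 3 arrays each. The members were fixed by gene name, and all probe sets annotated to them were taken: 10 genes, KRT5, KRT14 and KRT15 (basal layer), KRT6A, KRT6B, KRT16 and KRT17 (stress), and KRT8, KRT18 and KRT19 (simple epithelia). The array annotation used here listed a probe set for 7 of the 10 genes, 8 probe sets of 54613 in all, and KRT6A, KRT6B and KRT17 were not analysed here because no probe set was listed for them. None of the 8 probe sets was annotated to more than 1 gene, although the identifiers of the KRT8 and KRT18 probe sets carry the suffix for probes that may bind related transcripts. HaCaT is a spontaneously immortalized line of human epidermal keratinocytes. NLS-actin cells stably carried β-actin joined to EGFP and a nuclear localization sequence, WT-actin cells carried β-actin joined to EGFP without that sequence, and parental cells carried no construct. Only 1 stable line was measured per construct, and what the construct did and how the lines otherwise differ cannot be told apart. The sources used here do not say whether the arrays of a line came from separate cultures. The p values therefore measure the spread between these arrays.

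Keratins are the intermediate filament proteins of epithelial cells. A type I keratin and a type II keratin form a heterodimer, so filaments need both kinds. KRT5 (type II) and KRT14 (type I) build the filaments of basal keratinocytes, and KRT15 is a further type I keratin of the basal layer and the hair follicle bulge. KRT16 and KRT17 (type I) and KRT6A and KRT6B (type II) are induced in epidermis by wounding and in psoriasis. KRT8 (type II) with KRT18 or KRT19 (type I) forms the filaments of simple epithelia, and cultured keratinocyte lines often express these as well.

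The values were MAS5 signals, linear intensities with a trimmed mean of 500.04 to 500.06 on every array and a median of 29.67 to 43.26. All 8 listed keratinocyte markers, out of 10, lay above the median signal, and their summed signal was 57420 to 64380 in NLS-actin cells, 53020 to 66150 in WT-actin cells and 43380 to 55020 in the parental line. Above the median were 2 of 6 fibroblast, 1 of 5 melanocyte, 2 of 6 immune, 0 of 5 endothelial and 1 of 5 Merkel cell markers. Of these, CD14, a co-receptor for lipopolysaccharide on monocytes that other cells also express, was 94.0, 139.7 and 84.9 in NLS-actin cells, 13.8, 25.3 and 16.6 in WT-actin cells and 76.2, 119.2 and 35.6 in the parental line. The WT-actin signals of CD14 lay below the median of every array, so the size of its differences from WT-actin cells is uncertain. The log2 difference of CD14 between NLS-actin and WT-actin cells was 2.53 (limma adjusted p = 0.0484), and 2.1 with an offset before log2 (limma adjusted p = 0.0535). The threshold was passed in 7 of 21 alternatives, with adjusted p from 0.0233 to 0.565. In the leave-one-out fits it was passed only without parental replicate 3 (limma adjusted p = 0.0349). The part of CD14-expressing cells in the keratin differences was not tested. Other genes of these lists reached an unadjusted p under 0.05 in limma only. Between NLS-actin and WT-actin cells they were COL1A2, a fibroblast collagen on a dim probe set (log2 difference 2.5), and FCER1G of immune cells (0.84). For WT-actin against parental cells they were COL1A2 (-2.04), CD14 (-1.93), MITF of melanocytes (-0.40) and SYP of Merkel cells (-0.98). Between NLS-actin and WT-actin cells 2 of the 6 immune markers, CD14 and FCER1G, were positive. The other immune markers were negative, and the median log2 difference of the 6 was -0.47. NLS-actin replicate 2, WT-actin replicate 1 and parental replicate 2 stood apart, each from the remaining pair of its line and all toward the same side, on an axis with 46.8 percent of the variance within lines over 27279 brighter probe sets, keratins left out. The same 3 arrays had the highest log2 ratio of 3' to 5' ACTB control signal in their lines, a measure of RNA integrity and labelling: 3.68 in NLS-actin cells against 2.80 and 2.996, 3.90 in WT-actin cells against 2.76 and 1.93, and 2.99 in the parental line against 2.32 and 2.65. NLS-actin and WT-actin cells also carried β-actin constructs, and the part of the constructs in this ratio was not tested. The values of the keratins without these 3 arrays follow the account of the members. In cultures measured in bulk, a lower signal from fewer cells of a kind and from less RNA per cell cannot be told apart.

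KRT5 had the clearest separation from the parental line among the basal keratins. Its signal was 10418, 11964 and 11070 in NLS-actin cells, 12753, 8720 and 7942 in WT-actin cells and 6373, 9727 and 8904 in the parental line. All 3 NLS-actin arrays lay above all 3 parental arrays, and the WT-actin arrays overlapped both. The highest array of each line was the one that stands apart. The mean was 11151 ± 776.5 in NLS-actin cells, 9805 ± 2583 in WT-actin cells and 8335 ± 1748 in the parental line (SD, n = 3 each). NLS-actin cells were 1.36-fold above the parental line, a log2 difference of 0.44 with a standard error of 0.20 and a 95 percent interval of 0.02 to 0.87 (limma, unadjusted p = 0.0431, adjusted p = 0.767). The difference did not pass the adjusted threshold of 0.05. Without the 3 arrays that stand apart it was 0.51 (limma, unadjusted p = 0.0211), after quantile normalization 0.25 (limma, unadjusted p = 0.0799), and with the ACTB ratio as a covariate 0.25 (limma, unadjusted p = 0.11). It was 0.26 without parental replicate 1, the lowest KRT5 array of all 9. The log2 difference was 0.23 for WT-actin against parental cells (interval -0.20 to 0.65) and 0.21 in NLS-actin against WT-actin cells (interval -0.21 to 0.64). In WT-actin cells it was 0.04 without parental replicate 1 and 0.02 without WT-actin replicate 1.

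Promoter sequences were at hand for 2 of the member genes. In NLS-actin against parental cells arrays did not overlap for 1 of 8 keratin probe sets, against 13.2 percent of all. The KRT5 promoter is shown because KRT5 was the only member with arrays that did not overlap between lines. The 100 bases upstream of its start site in RefSeq (GRCh38.p14, chr12:52520395-52520494, minus strand) are printed 5′ to 3′, with a match to ATAAAA, a form of the TATA box, in capitals at position -29 from the start.
KRT5: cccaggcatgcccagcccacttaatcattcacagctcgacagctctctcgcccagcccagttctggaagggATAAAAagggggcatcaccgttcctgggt
Over the 250 bases upstream of 35116 RefSeq starts, searched on both strands, 14.8 percent held ATAAAA. The KRT5 window held 1 match to it and no match to GGGCGG (an Sp1 site, 42.6 percent of promoters), to GCCNNNGGC (an AP-2 site, 19.8 percent) or to the CArG box (the site of serum response factor, 1.2 percent), so none overlapped. These are matches of letters only, and the arrays did not measure binding.

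KRT14, the type I partner of KRT5, differed less between lines. Its signal was 11331, 11327 and 10292 in NLS-actin cells, 13829, 9848 and 9824 in WT-actin cells and 7816, 10484 and 10340 in the parental line. The NLS-actin and parental ranges overlapped, and the highest WT-actin and lowest parental arrays were the same that were highest and lowest for KRT5. The log2 difference from the parental line was 0.21 in NLS-actin cells (interval -0.15 to 0.58, limma adjusted p = 0.882) and 0.22 in WT-actin cells (interval -0.14 to 0.58, limma adjusted p = 0.881). Between NLS-actin and WT-actin cells it was -0.01 (interval -0.37 to 0.36, limma adjusted p = 0.997). Without parental replicate 1 the difference from the parental line was 0.08 in NLS-actin and 0.08 in WT-actin cells, and in WT-actin cells it was 0.06 without WT-actin replicate 1.

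KRT15 varied more between arrays of 1 line than between lines. Its signal was 3800, 8777 and 4202 in NLS-actin cells, 10340, 5578 and 3209 in WT-actin cells and 4362, 7932 and 3184 in the parental line. The highest array exceeded the lowest 2.31-fold in NLS-actin cells, 3.22-fold in WT-actin cells and 2.49-fold in the parental line, and in every line the highest was the array that stands apart. The differences between lines were small beside this spread. The log2 difference from the parental line was 0.12 in NLS-actin cells (interval -0.79 to 1.03) and 0.25 in WT-actin cells (interval -0.66 to 1.16), and between NLS-actin and WT-actin cells it was -0.13 (interval -1.04 to 0.78). With the ACTB ratio as a covariate the value for NLS-actin cells against the parental line was -0.38 with a standard error of 0.23 (limma, unadjusted p = 0.123).

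**Figure D1:**
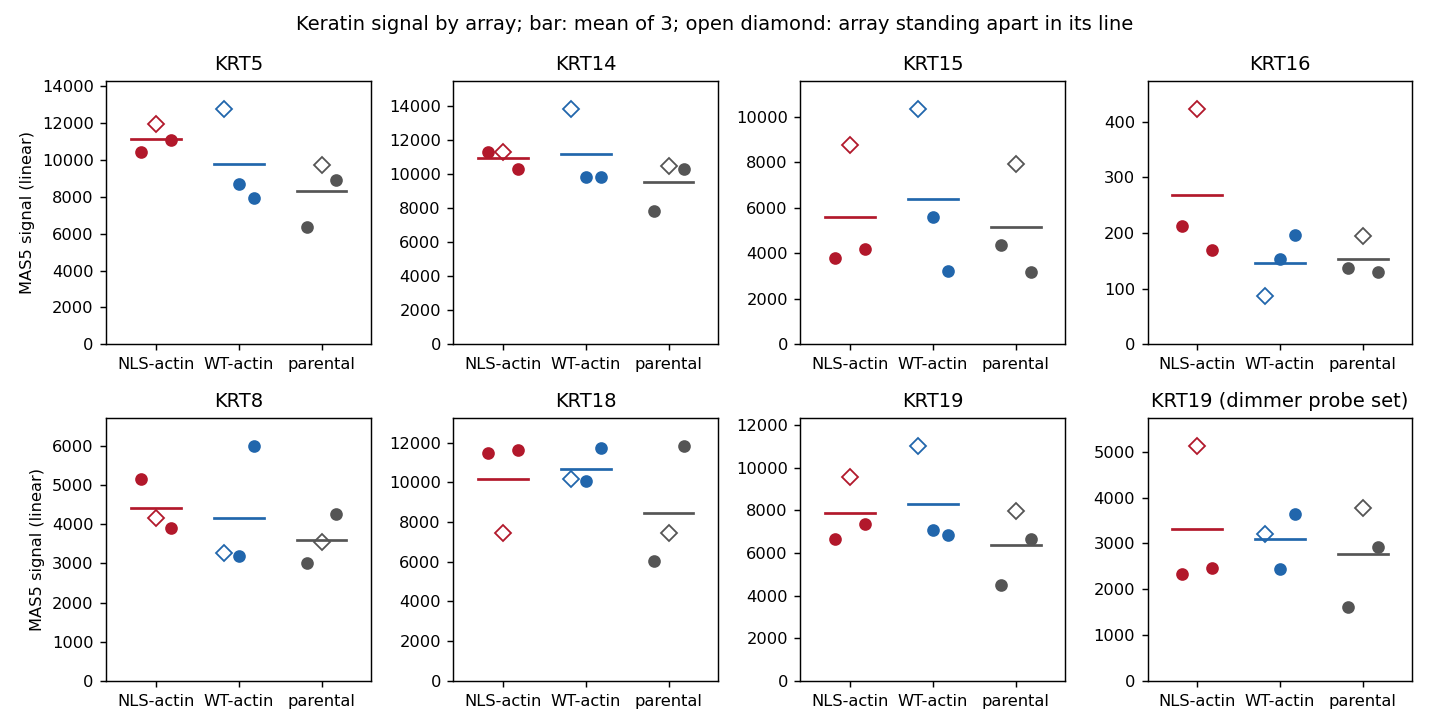
Linear MAS5 signal of the 8 keratin probe sets in each array, by line; points are arrays, bars the mean of 3, and open diamonds the array of each line that stands apart over the other probe sets. For KRT5 the NLS-actin arrays (10418 to 11964) lie above the parental arrays (6373 to 9727). The open diamond is the highest point of every line for KRT5, KRT15 and the brighter KRT19 probe set.

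KRT16 was the only stress keratin with a listed probe set, and its signal lay above the median of every array. Its signal was 211.6, 422.4 and 168.7 in NLS-actin cells, 87.48, 153.0 and 195.9 in WT-actin cells and 137.0, 195.0 and 129.6 in the parental line. NLS-actin replicate 2 was the highest array and replicate 1 the next, and replicate 3 lay within the ranges of both other lines. The mean was 267.6 ± 135.8 in NLS-actin cells, 145.5 ± 54.61 in WT-actin cells and 153.9 ± 35.8 in the parental line (SD, n = 3 each). NLS-actin cells were 1.63-fold above the parental line on the log2 mean, a difference of 0.71 (interval -0.11 to 1.53, limma, unadjusted p = 0.0853, adjusted p = 0.835). Against WT-actin cells they were 1.79-fold higher, a difference of 0.84 (interval 0.02 to 1.66, limma, unadjusted p = 0.0453, adjusted p = 0.623). Neither difference passed the adjusted threshold, and both rested in part on 1 array. Without NLS-actin replicate 2 the log2 difference was 0.32 against the parental line and 0.45 against WT-actin cells. Without all 3 arrays that stand apart it was 0.50 against the parental line and 0.13 against WT-actin cells (limma, unadjusted p = 0.104 and 0.666). WT-actin cells differed from the parental line by -0.13 (interval -0.95 to 0.69, limma adjusted p = 0.973).

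Among the simple epithelial keratins KRT8 was 5156, 4165 and 3899 in NLS-actin cells, 3264, 3191 and 6002 in WT-actin cells and 3003, 3551 and 4275 in the parental line. The lines overlapped, and WT-actin replicate 3 was the highest array. The log2 difference from the parental line was 0.29 in NLS-actin cells (interval -0.21 to 0.79) and 0.15 in WT-actin cells (interval -0.35 to 0.65). Between NLS-actin and WT-actin cells it was 0.14 (interval -0.36 to 0.64). None of these passed the test. Without parental replicate 1 the difference from the parental line was 0.17 for NLS-actin and 0.03 for WT-actin cells, and without WT-actin replicate 3 it was -0.15 for WT-actin cells.

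KRT18, a type I partner of KRT8, was 11464, 7469 and 11613 in NLS-actin cells, 10187, 10045 and 11714 in WT-actin cells and 6056, 7463 and 11835 in the parental line. Parental replicate 3 was the highest of the 9 arrays and parental replicate 1 the lowest, so that the parental range enclosed the others. The log2 difference from the parental line was 0.30 in NLS-actin cells (interval -0.20 to 0.80) and 0.39 in WT-actin cells (interval -0.11 to 0.89). Between NLS-actin and WT-actin cells it was -0.09 (interval -0.59 to 0.41). The values against the parental line turned on its 2 extreme arrays: they were 0.09 in NLS-actin and 0.18 in WT-actin cells without parental replicate 1, and 0.57 in NLS-actin and 0.66 in WT-actin cells without parental replicate 3.

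KRT19, the smallest keratin and the other type I partner of KRT8, had 2 probe sets. The brighter gave 6639, 9594 and 7352 in NLS-actin cells, 11031, 7073 and 6838 in WT-actin cells and 4514, 7977 and 6641 in the parental line. The highest array of each line was again the one that stands apart, as for KRT5 and KRT15. The log2 difference from the parental line was 0.32 in NLS-actin cells (interval -0.18 to 0.83) and 0.39 in WT-actin cells (interval -0.12 to 0.89), and that between NLS-actin and WT-actin cells was -0.06 (interval -0.57 to 0.44). The dimmer probe set ranged from 2338 to 5129 in NLS-actin cells, from 2444 to 3633 in WT-actin cells and from 1609 to 3784 in the parental line, with log2 differences of 0.25, 0.23 and 0.02 in the same 3 comparisons. Without parental replicate 1 the log2 difference of the brighter probe set was 0.09 for NLS-actin and 0.16 for WT-actin against parental cells, and for WT-actin it was also 0.16 without WT-actin replicate 1. Both probe sets gave NLS-actin and WT-actin means above the parental mean, and neither passed the test.

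Without the 3 arrays that stand apart, 8 of 8 keratin probe sets had a positive log2 difference for NLS-actin against parental cells, 8 of 8 for WT-actin against parental cells and 6 of 8 in NLS-actin against WT-actin cells, and none passed an adjusted p of 0.05 in limma. For NLS-actin against parental cells the log2 differences were then 0.51 for KRT5, 0.26 for KRT14, 0.10 for KRT15, 0.50 for KRT16, 0.32 for KRT8, 0.45 for KRT18, and 0.35 and 0.15 for the brighter and dimmer KRT19 probe sets. For WT-actin against parental cells they were 0.14, 0.13, 0.18, 0.38, 0.29, 0.36, 0.35 and 0.46 in the same order of probe sets. Between NLS-actin and WT-actin cells they were 0.37, 0.13, -0.08, 0.13, 0.03, 0.09, 0.01 and -0.31. The largest shift from the values with all arrays was that of KRT16 between NLS-actin and WT-actin cells, which had been 0.84.

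No keratin probe set passed an adjusted p of 0.05 in limma in any comparison with all 9 arrays. Over all probe sets this threshold was passed by 0.0769 percent for NLS-actin against parental cells, 0.103 percent for WT-actin against parental cells and 0.364 percent in NLS-actin against WT-actin cells. An unadjusted p under 0.05 was reached by 1 of 8 keratin probe sets, KRT5, for NLS-actin against parental cells, where 6.36 percent of all probe sets reached it. It was reached by 0 of 8 for WT-actin against parental cells (5.98 percent of all) and by 1 of 8, KRT16, in NLS-actin against WT-actin cells (7.85 percent of all). Arrays that did not overlap between lines were found for 1 of 8 (13.2 percent of all), 0 of 8 (12.3 percent) and 0 of 8 (12.1 percent) in these comparisons. When the replicate number, which was taken to pair the NLS-actin and parental arrays, entered a fit of those 6 arrays as a block, 3 of 8 keratin probe sets reached an unadjusted p under 0.05 in limma, and 11.3 percent of all probe sets did. Without the block, the fit of the same 6 arrays gave 1 of 8 and 6.97 percent, and an adjusted p under 0.05 was reached by 0.835 percent of all probe sets with the block and 0.0549 percent without it. The 3 keratins were KRT5 (limma, unadjusted p = 0.0041, adjusted p = 0.172), KRT16 (limma, unadjusted p = 0.00789, adjusted p = 0.231) and the brighter KRT19 probe set (limma, unadjusted p = 0.0225, adjusted p = 0.340). The pairing was inferred from correlations among these same arrays, and replicates 1 and 3 correlated more across numbers. The smaller p values with the block are therefore no separate evidence of a difference.

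Most differences from the parental line were positive. In NLS-actin cells 8 of 8 keratin probe sets had a mean log2 signal above the parental line, in WT-actin cells 7 of 8, and in NLS-actin against WT-actin cells 4 of 8 were higher. The parental line was lowest in 7 of 8, the exception being KRT16 with WT-actin cells lowest, and NLS-actin and WT-actin cells were each highest in 4 of 8. Both comparisons with the parental line share its 3 arrays. The median log2 difference of the 3 basal keratins was 0.21, 0.23 and -0.01 in NLS-actin against parental, WT-actin against parental and NLS-actin against WT-actin cells, and that of the 3 simple epithelial keratins was 0.30, 0.39 and -0.06. These medians moved with single arrays. Without parental replicate 1 the basal median was 0.08 for NLS-actin and 0.08 for WT-actin against parental cells, and the simple epithelial median 0.09 and 0.16. The basal median for WT-actin against parental cells was 0.02 without WT-actin replicate 1. Bright probe sets in general were shifted in the same way. Over the 2731 brightest probe sets, 5 percent of all, the medians were 0.134, 0.166 and -0.047 in the same comparisons, with 80.8, 83.9 and 36.1 percent above 0. Over all probe sets the medians were -0.064, -0.115 and 0.034. Of the 8 keratinocyte markers 8, 7 and 5 were positive, with medians of 0.29, 0.15 and 0.11. An unadjusted p under 0.05 in limma was reached for NLS-actin against parental cells by DSC3 (log2 difference 0.32), PERP (0.36) and TRIM29 (0.42), for WT-actin against parental cells by PERP (0.37), and between NLS-actin and WT-actin cells by DSG3 (0.65, and 0.37 without NLS-actin replicate 2). The part of such a general shift in the keratin differences was not tested beyond the scaling. Quantile normalization, which gives every array the same distribution, brought the medians of the bright probe sets to -0.002, -0.004 and 0.002, and left 7, 6 and 6 of 8 keratin probe sets positive. KRT14 was then at -0.0033 in NLS-actin cells and -0.09 for WT-actin against parental cells, and KRT5 at -0.04 in WT-actin cells.

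**Figure D2:**
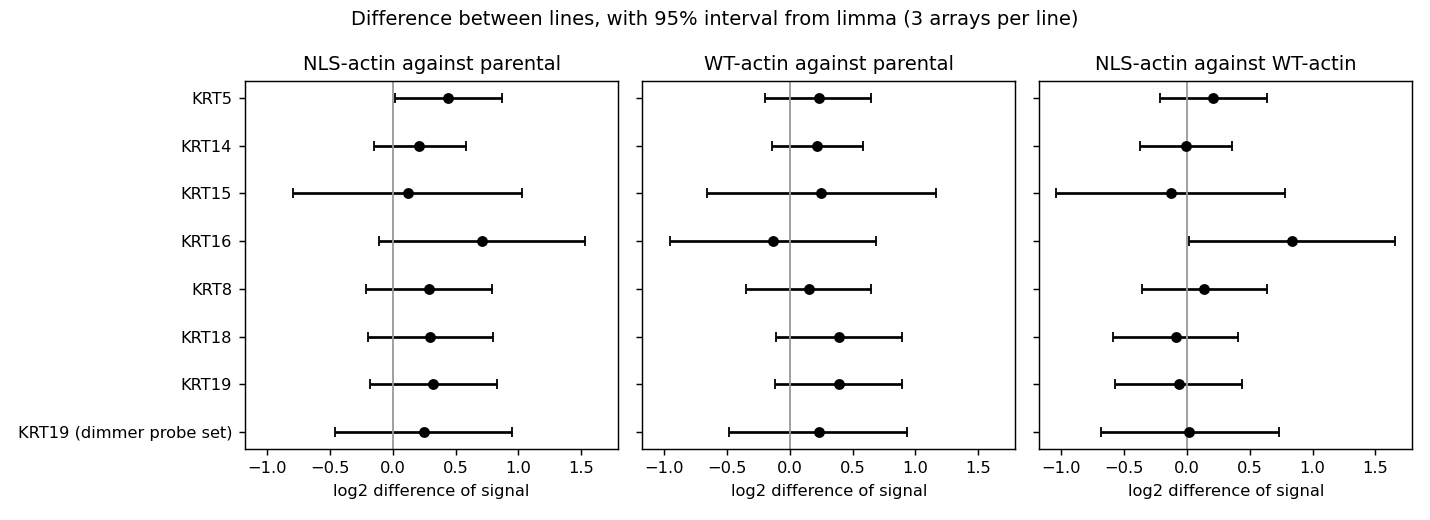
Log2 difference of MAS5 signal between lines for each keratin probe set, with its 95 percent interval from limma (3 arrays per line) and a line at 0. The interval lies above 0 for KRT5 for NLS-actin against parental cells (0.02 to 0.87) and for KRT16 in NLS-actin against WT-actin cells (0.02 to 1.66).

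The spread within lines separated the members. The standard deviation of log2 signal within lines was 0.219 for KRT14, 0.285 for KRT5, 0.354 for KRT8, 0.361 for KRT18, 0.365 and 0.543 for the brighter and dimmer KRT19 probe sets, 0.558 for KRT16 and 0.729 for KRT15. Among the 2731 brightest probe sets the median was 0.189 and the 90th percentile 0.284, and KRT15 lay at the 99.7 percentile. Differences between lines held 2.9 percent of the sum of squares of KRT15, against 37.3 percent for KRT5 and 39.7 percent for KRT16. They held 24.6 percent for KRT14, 24.1 for KRT18, 14.6 for KRT8, and 24.4 and 6.0 for the brighter and dimmer KRT19 probe sets. Spread between arrays alone also gives such a share, and the share over all probe sets was not computed. By the standard deviation within lines KRT14 and KRT5 were the steadiest members and KRT15 the least steady, although all are basal keratins. This ranks the members only: KRT14 (0.219) lay above the median of the bright probe sets and KRT5 (0.285) above their 90th percentile.

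The members did not follow the axis of the 3 arrays alike. KRT15 was higher in each of the 3 arrays than in the others of its line, by 1.14 on the log2 scale in NLS-actin cells, 1.29 in WT-actin cells and 1.09 in the parental line. Its deviations from the line means correlated with the scores on the axis at 0.97 over the 9 arrays, a description without a test. The brighter KRT19 probe set was higher by 0.46, 0.67 and 0.54 in the 3 arrays (r = 0.79) and the dimmer by 1.09, 0.10 and 0.80 (r = 0.59). KRT5 was higher by 0.16, 0.62 and 0.37 (r = 0.68) and KRT14 by 0.07, 0.49 and 0.22 (r = 0.59). KRT18 and KRT8 had negative differences, without a consistent run the other way. KRT18 differed by -0.63, -0.09 and -0.18 (r = -0.63) and KRT8 by -0.11, -0.42 and -0.01 (r = -0.47). The array that stands apart was the lowest of its line in 1 line for KRT18 and in 0 for KRT8. The -0.42 of KRT8 rested on WT-actin replicate 3 (6002), with replicates 1 and 2 at 3264 and 3191. KRT16 was mixed, with 1.16 in NLS-actin cells, -0.98 in WT-actin cells and 0.55 in the parental line (r = 0.26). The ACTB ratio moves with the same arrays, and its part in these differences was not tested.

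**Figure D3:**
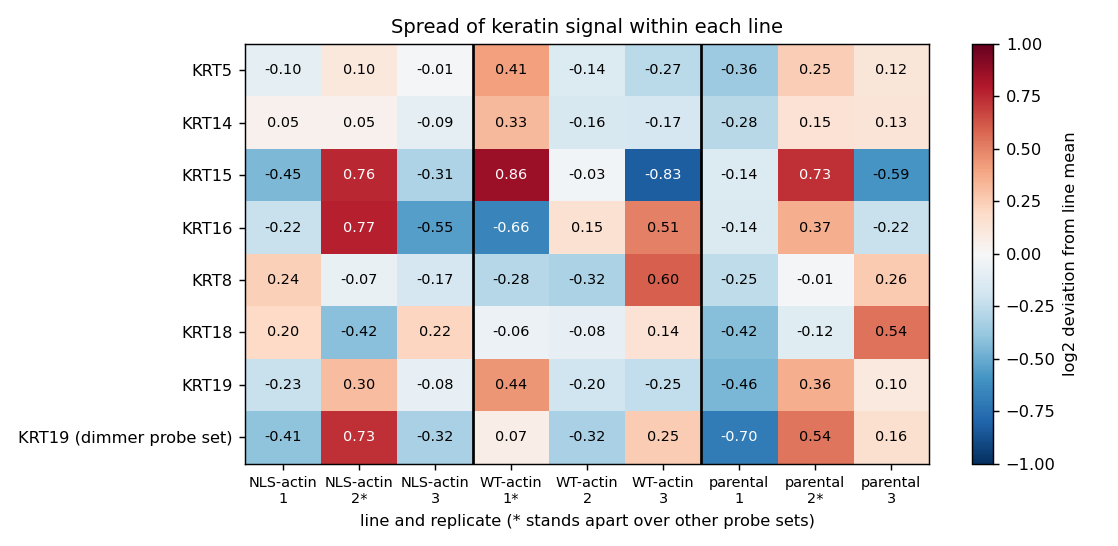
Log2 deviation of each keratin probe set from its line mean in each of the 9 arrays; an asterisk marks the arrays that stand apart over the other probe sets. The row of KRT15 is high in the 3 marked arrays (1.14, 1.29 and 1.09 above the other arrays of their lines), and KRT18 and KRT8 are not high there.

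Because type I and type II keratins assemble in pairs, partner keratins were compared over the arrays. Of 6 planned pairs 4 had a listed probe set for both genes, and p values were adjusted over these 4. KRT5 and KRT14 varied together, with a Pearson r of 0.911 over the 9 arrays (exact permutation test, two-sided, p = 0.000449, adjusted p = 0.0018) and a Spearman rho of 0.867 (exact permutation p = 0.00451, adjusted p = 0.018). Within lines r was 0.946 (exact permutation p = 0.0463, adjusted p = 0.139). The pooled relation rested in part on its extreme arrays and on the scaling: without WT-actin replicate 1 and parental replicate 1 it was 0.79 (exact permutation p = 0.0377, adjusted p = 0.151), and after quantile normalization 0.621 (exact permutation, adjusted p = 0.104).

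The other pairs were looser. KRT5 and KRT15 had an r of 0.59 (exact permutation p = 0.0948, adjusted p = 0.139) and a rho of 0.533 (exact permutation p = 0.148, adjusted p = 0.197), with 0.693 within lines and 0.535 without the same 2 arrays. KRT8 and KRT18 had an r of 0.576 (exact permutation p = 0.104, adjusted p = 0.139) and a rho of 0.717 (exact permutation p = 0.0369, adjusted p = 0.0737), with 0.541 within lines and 0.42 without NLS-actin replicate 1 and WT-actin replicate 3. KRT8 and KRT19 had an r of 0.01 (exact permutation p = 0.979, adjusted p = 0.979) and a rho of -0.133 (exact permutation p = 0.744, adjusted p = 0.744), with -0.174 within lines and 0.313 without these 2 arrays. KRT5 with KRT14 was thus the only pair past an adjusted p of 0.05, and only with all 9 arrays as scaled by MAS5. Whether its r differed from those of the other pairs was not tested. Keratins that are not partners were not paired, so whether the relation is particular to partners was not tested. WT-actin replicate 1 and parental replicate 1, the extreme arrays of KRT5 and KRT14, were also the highest and lowest for the brighter KRT19 probe set (11031 and 4514).

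**Figure D4:**
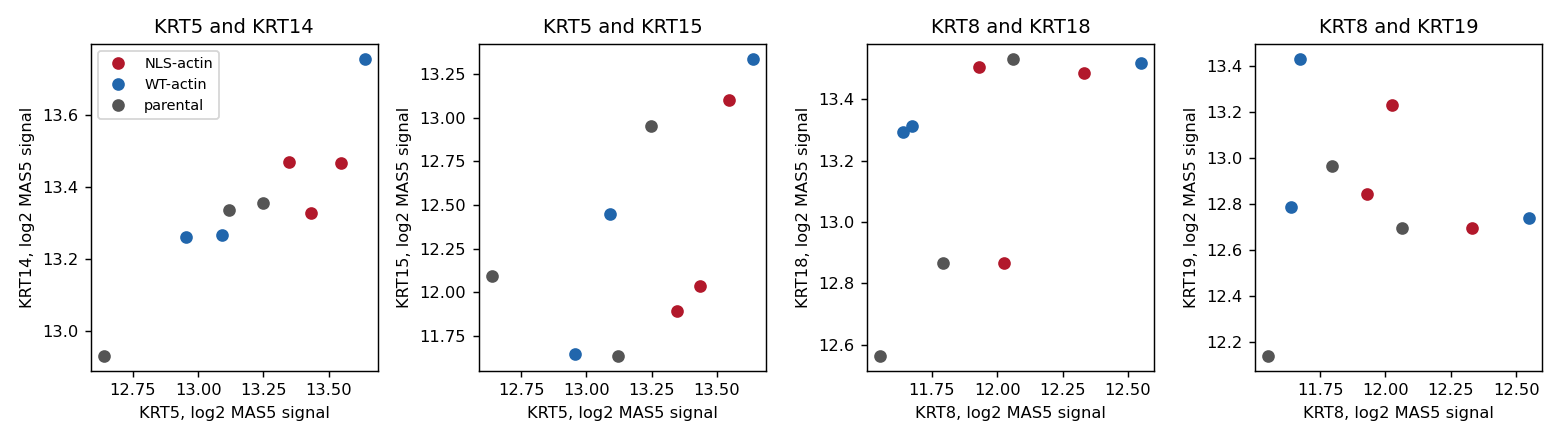
Log2 MAS5 signal of the type II keratin (horizontal) and its type I partner (vertical) for 4 pairs; each point is 1 of 9 arrays, coloured by line, and the axes do not start at 0. The points of KRT5 and KRT14 lie along a line (r = 0.911), with WT-actin replicate 1 at the top and parental replicate 1 at the bottom, and those of KRT8 and KRT19 do not (r = 0.01).

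The non-keratin genes whose profile over the 9 arrays was most like that of each keratin group were named by Pearson r among 11960 genes, as a description. For the mean of the basal keratins they were LTA4H, the leukotriene A4 hydrolase (0.977), PBXIP1 (0.975) and DDIT4, a stress-induced inhibitor of mTORC1 (0.971). For KRT16 they were TLE3, a transcriptional co-repressor (0.971), SLC5A2, a sodium-glucose cotransporter (0.941), and HSD11B2, which inactivates cortisol (0.931). For the simple epithelial keratins they were PSMB7, a proteasome subunit (0.944), MAP1LC3B, a protein of autophagosomes (0.923), and TOR1A, a chaperone-like ATPase (0.919).

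Of 44 further keratins of the epidermis, mucosa, glands and hair, 36 had a listed probe set. None passed an adjusted p of 0.05 in limma in any comparison, and at an unadjusted p under 0.05 the counts were 1 higher and 4 lower for NLS-actin against parental cells, 0 higher and 1 lower for WT-actin against parental cells, and 4 higher and 6 lower in NLS-actin against WT-actin cells. Their median log2 difference was -0.08, -0.30 and 0.27 in these comparisons. KRT1, the type II keratin of suprabasal cells, was 371, 3305 and 264.7 in NLS-actin cells, 197, 33.6 and 17.5 in WT-actin cells and 62.1, 287.1 and 25.1 in the parental line. The highest array was NLS-actin replicate 2, and only the WT-actin comparison had no overlap between arrays. The log2 difference was 3.17 against the parental line (limma, unadjusted p = 0.0101, adjusted p = 0.575) and 3.82 against WT-actin cells (limma, unadjusted p = 0.00308, adjusted p = 0.232), and without NLS-actin replicate 2 it was 2.04 and 2.68. KRT77, a type II keratin of sweat gland ducts, was 112.9, 1074 and 76.7 in NLS-actin cells, 123.1, 44.2 and 4.80 in WT-actin cells and 52.7, 287.6 and 40.0 in the parental line. The arrays overlapped in both comparisons, and NLS-actin replicate 2 was far above the rest. KRT77 had a log2 difference of 2.83 between NLS-actin and WT-actin cells (limma, unadjusted p = 0.0297, adjusted p = 0.560), which was 1.65 without NLS-actin replicate 2 and 1.51 without WT-actin replicate 3.

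KRT10, the type I partner of KRT1, had a log2 difference of -0.49 in NLS-actin against WT-actin cells (limma, unadjusted p = 0.0336, adjusted p = 0.579) and of -0.32 without WT-actin replicate 1. KRT9, a type I keratin of palms and soles, was 405.9, 351.9 and 342.3 in NLS-actin cells, 518.8, 500.0 and 456.8 in WT-actin cells and 636.8, 647.0 and 627.5 in the parental line. The 3 lines did not overlap, with NLS-actin cells lowest and the parental line highest. The log2 difference of KRT9 was -0.80 for NLS-actin against parental cells (limma, unadjusted p = 0.000544, adjusted p = 0.217) and -0.43 against WT-actin cells (limma, unadjusted p = 0.0311, adjusted p = 0.568). KRT23, a type I keratin, was 15.2 to 28.4 in NLS-actin cells, 46.2 to 119.2 in WT-actin cells and 62.4 to 88.4 in the parental line, with log2 differences of -1.83 (limma, unadjusted p = 0.00175, adjusted p = 0.340) against the parental line and -1.59 (limma, unadjusted p = 0.00469, adjusted p = 0.272) against WT-actin cells. The NLS-actin signals of KRT23 lay below the median of every array, so the size of both differences is uncertain. The other keratins at an unadjusted p under 0.05, KRT75, KRT79, KRT71, KRT32, KRT33B and KRT85, had mean signals of at most 37.9 in every line, within or below the range of the array medians, so that the size of their differences is uncertain. KRT13, a type I keratin of mucosa chosen after its values were seen, had its highest array in each line at the one that stands apart, with 7979 in NLS-actin cells, 7288 in WT-actin cells and 7851 in the parental line against 1606 to 4430 in the other 6 arrays. This was not particular to KRT13, since the highest array of each line was the one that stands apart for KRT1 and KRT77 as well.

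A list of 13 genes, mostly for proteins that tie keratin filaments to desmosomes and hemidesmosomes or bundle them, had probe sets for all 13. None passed an adjusted p of 0.05 in limma. The list also held KRTCAP2, a keratinocyte-associated protein that does neither (log2 difference 0.03 for NLS-actin against parental cells). In NLS-actin cells 11 of 13 had a positive log2 difference from the parental line, with a median of 0.22, against 8 of 13 with a median of 0.10 in WT-actin cells. All 13 lay above the median signal. Of the brightest 5 percent of probe sets 80.8 and 83.9 percent were positive in these comparisons, with medians of 0.134 and 0.166. Of all probe sets 44.4 and 40.1 percent were positive. PPL, periplakin of the desmosomal plaque and cornified envelope, was 9604, 9139 and 10120 in NLS-actin cells, 9307, 7263 and 5947 in WT-actin cells and 5871, 7011 and 7865 in the parental line. The NLS-actin arrays lay above the parental arrays and overlapped WT-actin replicate 1. The log2 difference of PPL was 0.49 against the parental line (limma, unadjusted p = 0.0148, adjusted p = 0.644) and 0.38 against WT-actin cells (limma, unadjusted p = 0.0462, adjusted p = 0.625), where it was 0.23 without WT-actin replicate 3. FLG, filaggrin, which aggregates keratin filaments in the granular layer, was 0.87 above the parental line in NLS-actin cells (limma, unadjusted p = 0.0433, adjusted p = 0.767), and 0.43 without parental replicate 2.

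Among 13 other intermediate filament genes 2 differed between NLS-actin and WT-actin cells at an adjusted p under 0.05 in limma. NEFL, the neurofilament light chain, was 7831, 8049 and 8227 in NLS-actin cells, 4128, 4642 and 2880 in WT-actin cells and 3911, 4343 and 3819 in the parental line. All NLS-actin arrays lay above those of both other lines. The log2 difference of NEFL was 1.08 against WT-actin cells (limma adjusted p = 0.0130) and missed the threshold against the parental line (limma adjusted p = 0.0629). INA, the neuronal filament protein α-internexin, was 219.7, 268.6 and 203.5 in NLS-actin cells, 988.1, 694.3 and 591.4 in WT-actin cells and 482.3, 565.7 and 319.8 in the parental line, a log2 difference of -1.69 against WT-actin cells (limma adjusted p = 0.0109). The NLS-actin arrays were the lowest and did not overlap either line. The adjusted p of NEFL against WT-actin cells stayed under 0.05 in 15 of 21 alternatives (0.00571 to 0.384) and that of INA in 15 of 20 (0.000919 to 0.408). NEFL missed it without NLS-actin replicate 1 or 3 (limma adjusted p = 0.0699 and 0.0746), and INA without NLS-actin replicate 1 or 3 or WT-actin replicate 2 (limma adjusted p = 0.0629, 0.0615 and 0.0599). SYNM, synemin, had log2 differences of -0.79 in NLS-actin cells (limma, unadjusted p = 0.000667, adjusted p = 0.224) and -0.94 in WT-actin cells (limma, unadjusted p = 0.00014, adjusted p = 0.101) against the parental line. PRPH, peripherin, had log2 differences of 1.16 against the parental line and 1.79 against WT-actin cells in NLS-actin cells, and NES, nestin, of 0.74 against WT-actin cells, all at an unadjusted p under 0.05 only. PRPH was 111.9, 270.1 and 69.7 in NLS-actin cells, 57.4, 28.4 and 31.1 in WT-actin cells and 67.9, 82.3 and 33.8 in the parental line. NLS-actin replicate 2 was the highest array for PRPH and, at 456.5, for NES. Without it the log2 difference of PRPH was 0.62 against the parental line and 1.26 against WT-actin cells, and that of NES 0.40 against WT-actin cells. VIM (vimentin), DES (desmin) and NEFM also reached an unadjusted p under 0.05, on dim probe sets: the arrays of VIM held signals of 0.829 to 27.4, those of DES 1.62 to 30.0 and those of NEFM 3.25 to 51.2.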

How the data were processed

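RNA of 3 HaCaT lines was measured on 9 Affymetrix whole-genome arrays. The authors deposited linear MAS5 signal intensities, which were found here to share a mean after trimming 2 percent at each end. The scaling target and MAS5 version are not given in the sources used here. The analysis started from log2 signals, with no offset or filter and with 62 control probe sets left out. Of the other 54613 probe sets 41091 had 1 gene symbol, 1801 several and 11721 none listed. The lines were compared in R 4.3.3 with limma 3.58.1 (1 mean per line, variance following the signal level). Benjamini-Hochberg adjustment ran over all 54613 probe sets, with a threshold of 0.05. Exact permutation of 3 against 3 arrays reaches no p below 0.1, so none is given for single genes. Partner keratins were compared by exact permutation over 362880 orders of arrays, or 216 within lines (Python 3.11.15, scipy 1.17.1). A gene with several probe sets was taken at the brightest, as far as lists and pairs go.

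The members and lists were chosen with earlier results of these data known, and so were the omission of the 3 arrays and the block. Named genes were all members, list genes with an unadjusted p under 0.05 in any comparison, and the 3 genes of most similar profile per group. KRT13 was added after its values were seen. The replicate numbers were taken to pair the NLS-actin and parental arrays, because deviations from line means of the same number correlated at 0.150, 0.662 and 0.209, although replicates 1 and 3 correlated more across numbers (0.380 and 0.337). For WT-actin cells they ranged from -0.443 to 0.425 and were not taken as pairs. The fit was tested on simulated data. Alternatives tried were an offset of 8.08, quantile normalization, brighter probe sets only, a variance without trend, replicate blocks, fits of 2 lines, other units of test, omission of cross-hybridizing probe sets, the ACTB ratio as covariate, Tukey's test and omission of arrays. Precision is limited by the number of arrays.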

Additional observations from a re-analysis of the deposited data

How the results depend on the processing

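No keratin probe set passed an adjusted p of 0.05 under any of 22 alternatives for NLS-actin against parental or 21 for each other comparison, and the lowest adjusted p was 0.172, for KRT5 when the replicate number was a block in a fit of the NLS-actin and parental arrays. Over all probe sets that fit of 6 arrays called 136 higher and 320 lower with the block and 12 higher and 18 lower without it, and the fit of all 9 arrays without a block called 8 higher and 34 lower. The block over all 9 arrays, which the WT-actin numbers do not bear out, gave KRT5 an unadjusted p of 0.0597 in limma. The methods name Tukey's test in their general statistics, and for the arrays only cut-offs of p and fold change. Tukey's test gave 0 of 8 keratin probe sets an unadjusted p under 0.05 (smallest unadjusted p 0.222 for NLS-actin against parental, 0.437 for WT-actin against parental, and 0.234 between NLS-actin and WT-actin cells). Over all alternatives 0 to 3 of 8 reached it for NLS-actin against parental, 0 to 1 for WT-actin against parental, and 0 to 2 between NLS-actin and WT-actin cells. Without the intensity trend the lowest unadjusted p in limma was 0.138 for NLS-actin cells against the parental line, and without parental replicate 1 it was 0.182.

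Of 21 log2 differences, 12 changed sign under some alternative, in 28 values, and 414 values kept their sign. Many alternatives cannot change a log2 difference, such as Tukey's test, the variance without trend, or omission of an array of the line not compared. The 414 values therefore do not measure how stable the signs are. After quantile normalization KRT14 was at -0.0033 and -0.09 in NLS-actin and WT-actin cells against the parental line, KRT5 at -0.04 and KRT16 at 0.06 for WT-actin against parental cells, and KRT14 at 0.09 and KRT19 at 0.01 in NLS-actin against WT-actin cells. With the ACTB ratio as a covariate KRT15 was at -0.38 for NLS-actin against parental cells. Without the 3 arrays that stand apart KRT16 was at 0.38 for WT-actin against parental cells. In NLS-actin against WT-actin cells KRT14, KRT18 and KRT19 were then at 0.13, 0.09 and 0.01, and KRT16, the only stress keratin with a listed probe set, moved to 0.13. Leaving out 1 array in turn, KRT15 ranged from -0.26 to 0.48 in NLS-actin cells and from -0.18 to 0.66 for WT-actin against parental cells, and KRT16 from -0.39 to 0.19 and KRT8 from -0.15 to 0.31 for WT-actin against parental cells. In NLS-actin against WT-actin cells the ranges were -0.09 to 0.16 for KRT14, -0.55 to 0.30 for KRT15, -0.20 to 0.12 for KRT18, -0.22 to 0.16 for KRT19, -0.02 to 0.44 for KRT8 and -0.09 to 0.30 for the median of the basal keratins, the highest without WT-actin replicate 1. The correlation of KRT5 and KRT14 was 0.621 after quantile normalization and 0.79 without the 2 arrays farthest from the median of KRT5, and neither passed an adjusted p of 0.05. The cause of these changes was not tested.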
